A study of Mus musculus with 14 samples.

Results

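The genes described here build the machinery that joins, divides and moves mitochondria: Mfn1, Mfn2, Opa1, Dnm1l, Fis1, Mff, Mief1, Mief2, Mtfr1 and Rhot1. They were taken as a list of names and looked up by gene symbol, with apostrophes removed. All 10 were found in the count table of each oocyte stage, among 18562 genes listed in at least 1 of the tables. Of these, 9 passed the filter on low counts in each comparison, and Mief2 did not. The study asked what the loss of CLPX, the unfolding subunit of a protease of the mitochondrial matrix, does to mouse oocytes. RNA was sequenced from fully grown oocytes arrested with an intact nucleus (germinal vesicle, GV) and from ovulated oocytes. At each stage Clpxfl/fl oocytes without Cre (labelled WT) were compared with Clpxfl/fl; Zp3-Cre oocytes (conditional knockout, CKO), with 4 WT and 4 CKO libraries of GV oocytes and 3 WT and 3 CKO libraries of ovulated oocytes. The titles of the ovulated WT libraries spell the genotype Clpxfl/f, while their genotype field reads Clpxfl/fl. By that field all 4 groups carried the floxed Clpx alleles, and Zp3-Cre, driven by the promoter of a zona pellucida gene, acts in oocytes once they grow. The labels used here give no animal age and no number of oocytes or animals per library. Nothing in them says that libraries of a group came from separate animals, so p-values measure the spread between these libraries only.

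Mitochondria fuse when the GTPases MFN1 and MFN2 join the outer membranes of neighbouring organelles and OPA1 joins the inner membranes. They divide when the dynamin-related GTPase DRP1, the product of Dnm1l, is recruited from the cytosol by outer-membrane receptors (MFF, FIS1, MIEF1 and MIEF2) and constricts them. Oocytes hold many small, round mitochondria, make almost no new RNA between the GV stage and ovulation, and regulate stored mRNAs through their poly(A) tails.

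Because the tail is set by signals at the 3′ end of an mRNA, the ends of 5 members that differed between the stages are shown here. Each line is a window of 30 bases from the GENCODE M21 transcript on build mm10, 5′ to 3′ on the strand of the gene, with a matched motif in capitals. In Mfn1 the capitals mark a cytoplasmic polyadenylation element (searched as TTTTAT or TTTTAAT in the last 100 bases of the transcript strand). In the other 4 they mark the cleavage and polyadenylation signal (searched as AATAAA or ATTAAA in the last 40 bases).
Mfn1: tttacaaaacatTTTTATaagtatgcaagc
Dnm1l: atgttctatgtaAATAAAaatgctggtgtg
Fis1: gcaatgagtgtaAATAAAattgggccgtgg
Mief1: tgggaagaagaaAATAAAaatctcctttcc
Mff: tgtagtgtatttAATAAActgtcaaccaaa
The windows lie at chr3:32579164-32579193 (plus strand) for Mfn1, chr16:16312246-16312275 (minus strand) for Dnm1l, and chr5:136966197-136966226 (plus strand) for Fis1. Those of Mief1 and Mff lie at chr15:80253337-80253366 and chr1:82752361-82752390, both on the plus strand. Mfn1 was the only member whose last 100 bases held a match to the cytoplasmic element, which started 64 bases from its end. Across 12799 genes with a transcript the element was found in 19.2%, and the cleavage and polyadenylation signal in 75.9%. Opa1 and Mtfr1, which also differed between the stages and are not shown, had a match to neither motif. Mfn2, which differed in WT and is not shown, had the cleavage and polyadenylation signal AATAAA. Mfn1 had this signal too, outside the window shown. A match is a string of letters in 1 annotated transcript and does not show that the site is used.

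Each library held between 25086506 and 28471453 counts. Clpx itself checked the labels: it was between 39.6 and 58.1 CPM (counts scaled to the library, in units of 1000000) in the GV WT libraries and between 0.676 and 1.44 in the GV CKO libraries. In ovulated oocytes it was between 17.0 and 19.1 CPM in WT and between 0.269 and 0.575 in CKO. All 12 oocyte markers searched for were listed at both stages, with a summed level between 31940 and 68760 CPM in GV libraries and between 15530 and 20110 CPM in ovulated libraries. Markers of granulosa and cumulus cells (13 of 15 listed for GV and 12 of 15 for ovulated oocytes) summed to between 41.7 and 66.8 CPM in GV libraries and between 64.6 and 128.5 CPM in ovulated libraries, most of it Cyp19a1. Among them Amh was at 0 in every GV WT library, and Amhr2 and Ptx3 were at 0 in every ovulated CKO library. Of these markers 9 could be tested between the stages (edgeR, adjusted p under 0.05). In WT 3 were higher and 0 lower in ovulated oocytes (63.7% of all genes passed), and in CKO 2 were higher and 1 lower (55.7%). Kitl was higher in both genotypes, from 2.37 to 6.89 CPM in WT and from 2.61 to 6.33 in CKO. Fshr, at low levels, was the lower one in CKO, from 0.342 to 0.0112 CPM, and did not pass in WT (0.459 to 0.111 CPM). Markers of the other cells of the ovary, from theca and stroma to endothelium and blood (10 of 10 and 7 of 10 listed) summed to between 21.1 and 45.5 CPM in GV libraries and between 46.3 and 109.1 CPM in ovulated libraries. Pecam1 was the highest of these, at a mean of 35.0 CPM in GV WT, 31.7 in GV CKO, 68.7 in ovulated WT and 62.2 in ovulated CKO. The last sum was higher in every ovulated library than in any GV library, the granulosa and cumulus sum overlapped slightly between the stages, and their part in the stage differences was not tested.

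Compared per length, as FPKM (fragments scaled to gene length and library), the members spanned a wide range, and the receptor Mff stood highest at both stages. In GV WT oocytes Mff was at 439 ± 37.6 FPKM (SD, n = 4), ahead of Rhot1, a GTPase that ties mitochondria to motor proteins, at 59.8 ± 7.11. Fis1 followed at 36.5 ± 6.37, Mtfr1, a regulator of fission, at 32.8 ± 8.65, and Dnm1l at 21.7 ± 4.61. Neighbours in this order from Fis1 to Dnm1l overlapped, whereas every Mff value was above every Rhot1 value. Below them came Mfn1 at 9.48 ± 2.93, Mief1 at 7.31 ± 1.75, Opa1 at 4.65 ± 1.26 and Mfn2 at 1.45 ± 0.307 FPKM. Mfn1 and Mief1 overlapped. Mief2 (gene ID 237781, chromosome 11, 60728398 to 60732951), the close relative of Mief1, was barely detected: its 14 counts over all libraries lay in 7 of the 14 libraries, with at most 3 in any of them. A library without a count of Mief2 allows up to 3 counts, and no comparison was made for it.

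In ovulated WT oocytes the order of levels changed below the leading pair. Mff stood at 264 ± 49.9 FPKM (SD, n = 3) and Rhot1 at 76.97 ± 9.62. Dnm1l came next at 58.4 ± 12.4 and Mfn1 followed at 29.3 ± 5.88, so both stood above Fis1 at 12.7 ± 7.17. Rhot1 and Dnm1l overlapped slightly, since the lowest Rhot1 library was at 68.6 FPKM and the highest Dnm1l library at 69.6 FPKM. Opa1 (11.5 ± 2.78) and Mtfr1 (11.4 ± 2.40) did not differ beyond their spread from Fis1 or from each other. Mief1 was at 2.43 ± 1.18 and Mfn2 at 0.78 ± 0.615 FPKM. The FPKM of each stage were scaled separately by the authors, so only the order within a stage is read from them. The CKO libraries held the same order in the first 4 places at the ovulated stage, with Mff at 396 FPKM, Rhot1 at 91.1, Dnm1l at 54.9 and Mfn1 at 34.5.

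**Figure D1:**
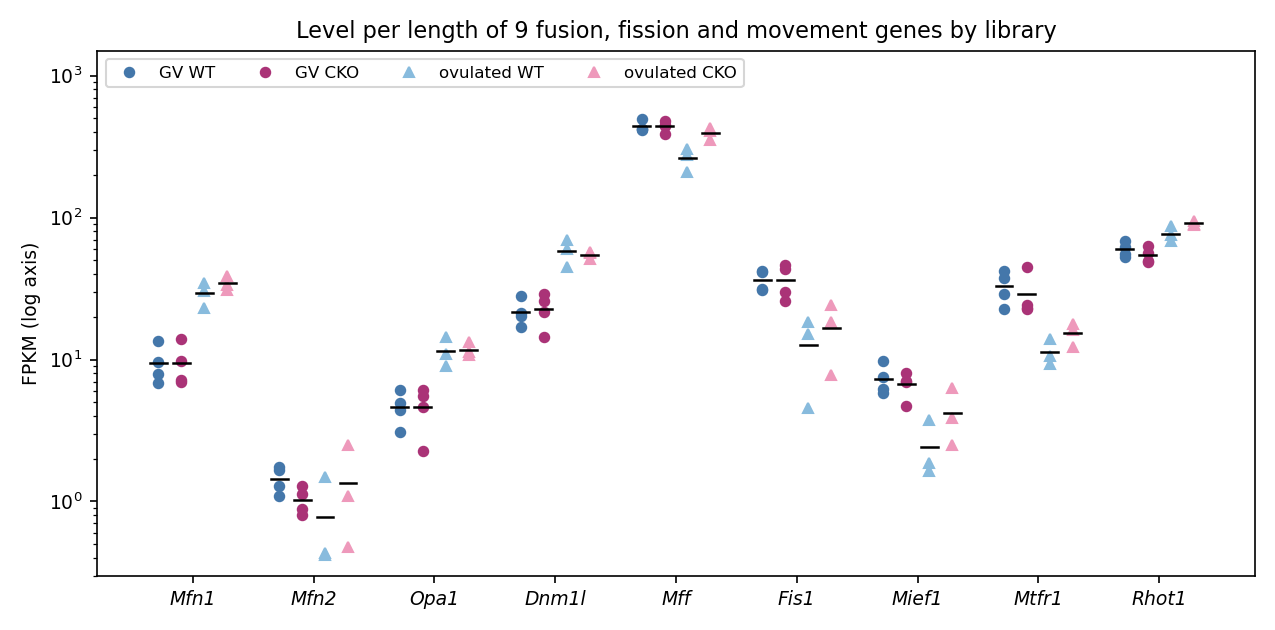
FPKM of the 9 tested members (log axis) in each library, by group: dark points are GV oocytes, light triangles ovulated oocytes, blue WT and pink CKO, and bars are group means. Mff has the highest level in every group and Mfn2 the lowest, and the blue and pink points of a stage overlap for every gene but Mff and Rhot1 in ovulated oocytes.

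The members split by stage rather than moving as 1 group. From GV to ovulated WT oocytes 3 of the 9 tested members rose (Mfn1, Opa1 and Dnm1l) and 5 fell (Mfn2, Fis1, Mff, Mief1 and Mtfr1), while Rhot1 did not pass (edgeR quasi-likelihood test, adjusted p under 0.05). Over all 13158 genes tested 63.7% passed, 29.7% higher and 34.0% lower, so change by itself does not set the members apart. Libraries of the 2 stages did not overlap for any of the 8 members that passed, as for 62.3% of all genes. The median log2 fold change of the members was -1.10 in WT, against -0.08 for all genes, and -0.24 in CKO, against -0.14. Members lay on both sides of 0, and the WT median is the value of Mff. CPM are shares of a library's RNA, so a lower share and a smaller amount per oocyte cannot be told apart, nor can fewer cells of a type and less RNA per cell. Whether a change in the poly(A) tail altered how well an mRNA was copied was not tested. The words rose and fell therefore refer to measured shares, not to mRNA made or lost. The stages were also separate tables, and stage and any difference in library preparation cannot be told apart.

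Among the fusion GTPases, the mitofusins moved in opposite directions in WT oocytes. Mfn1 (gene ID 67414, chromosome 3, 32529443 to 32579225) was at 31.8, 49.2, 51.7 and 40.9 CPM in the GV WT libraries and at 67.5, 41.5, 40.01 and 46.9 in the GV CKO libraries. In ovulated oocytes it was at 144.3, 95.5 and 86.2 CPM in WT and at 106.9, 122.8 and 127.6 in CKO. Every ovulated library was above every GV library, in both genotypes. Mfn1 rose 2.50-fold in WT (log2 fold change 1.32, SE 0.255, adjusted p = 0.000287, edgeR) and 2.43-fold in CKO (1.28, SE 0.255, adjusted p = 0.000518). Opa1 (gene ID 74143, chromosome 16, 29579281 to 29663127), the inner-membrane GTPase, was at 26.8, 39.95, 34.1 and 28.5 CPM in GV WT and at 41.2, 42.9, 33.8 and 22.8 in GV CKO. It was at 67.8, 68.0 and 49.4 CPM in ovulated WT and at 58.5, 61.2 and 60.1 in ovulated CKO, again above every GV library. Opa1 rose 1.91-fold in WT (log2 0.93, SE 0.244, adjusted p = 0.00319, edgeR) and 1.70-fold in CKO (0.77, SE 0.244, adjusted p = 0.0132).

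Mfn2 (gene ID 170731, chromosome 4, 147873586 to 147904909) was low throughout, at 6.58, 6.56, 6.55 and 6.38 CPM in GV WT and at 6.09, 5.20, 4.52 and 5.14 in GV CKO. It was at 1.77, 4.64 and 1.56 CPM in ovulated WT and at 3.72, 7.76 and 1.82 in ovulated CKO. The GV values lay close together, whereas the ovulated values spread widely, and only in WT did the stages not overlap. Mfn2 fell 2.45-fold in WT (log2 -1.29, SE 0.45, adjusted p = 0.0194, edgeR) and did not pass in CKO (-0.24, SE 0.436, adjusted p = 0.66). The WT call was lost when GV WT replicate 2 or 4 or ovulated WT replicate 1 or 3 was left out (log2 between -1.19 and -0.99), and without ovulated WT replicate 2 the value was -2.01. The call was also lost with total counts in place of the scaling (-0.88, adjusted p = 0.161). The difference between the genotypes in this stage change was 1.05 on the log2 scale (SE 0.617) and did not pass (adjusted p = 0.651, edgeR), with values between 0.33 and 1.78 when 1 library was left out.

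Of the fission genes, that of the GTPase rose in both genotypes, and those of 3 of its 4 receptors (Mff, Fis1 and Mief1) fell, while Mief2 could not be tested. Dnm1l (gene ID 74006, chromosome 16, 16312228 to 16359038) was at 76.6, 94.0, 94.1 and 90.9 CPM in GV WT and at 108.5, 115.5, 106.0 and 84.5 in GV CKO. In ovulated oocytes it was at 225.0, 127.4 and 233.1 CPM in WT and at 177.5, 144.8 and 190.9 in CKO. All ovulated libraries lay above all GV libraries, with ovulated WT replicate 2 well below the other two of its group. Dnm1l rose 2.20-fold in WT (SE 0.233 on the log2 scale, adjusted p = 0.000501, edgeR) and 1.65-fold in CKO (log2 0.72, SE 0.233, adjusted p = 0.0145).

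Mff (gene ID 75734, chromosome 1, 82724890 to 82752390), the receptor with the most mRNA, was at 577.3, 744.8, 537.1 and 1003 CPM in GV WT and at 636.6, 893.1, 631.4 and 1066 in GV CKO. In ovulated oocytes it was at 394.5, 335.0 and 272.4 CPM in WT and at 505.4, 382.7 and 537.4 in CKO. Replicate 4 was the highest of its group in both GV genotypes, where its scaling factor was the lowest of the group (0.721 in WT and 0.654 in CKO). Its unscaled counts, 19958 in WT and 19301 in CKO, were also the highest, by a smaller factor. In CPM no ovulated library reached the GV libraries of its genotype. Mff fell 2.14-fold in WT (log2 -1.10, SE 0.294, adjusted p = 0.00375, edgeR) and 1.70-fold in CKO (-0.76, SE 0.29, adjusted p = 0.0337). The CKO call was not stable: it was lost without GV CKO replicate 2 or 4 or ovulated CKO replicate 1 or 2 (log2 between -0.80 and -0.48). It was also lost with no filter on low counts (-0.71, adjusted p = 0.0563) and with replicate number as a block in the fit (-0.56, adjusted p = 0.0915). With total counts the value was -0.13 (adjusted p = 0.607).

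Fis1 (gene ID 66437, chromosome 5, 136953275 to 136966234) was at 21.3, 20.5, 20.2 and 23.6 CPM in GV WT and at 29.0, 23.1, 23.0 and 21.4 in GV CKO. It was at 2.48, 6.36 and 9.30 CPM in ovulated WT and at 11.0, 7.65 and 3.87 in ovulated CKO. The ovulated libraries were all lower, and differed several-fold among themselves within each genotype. Fis1 fell 3.54-fold in WT (log2 -1.82, SE 0.395, adjusted p = 0.000774, edgeR) and 3.21-fold in CKO (-1.68, SE 0.392, adjusted p = 0.00174). Mief1 (gene ID 239555, chromosome 15, 80233964 to 80253372), the adaptor also called MiD51, was at 26.4, 43.8, 41.4 and 42.0 CPM in GV WT and at 37.9, 53.5, 32.2 and 35.1 in GV CKO. It was at 7.83, 13.8 and 8.08 CPM in ovulated WT and at 15.3, 22.6 and 11.0 in ovulated CKO. No ovulated library reached a GV library of either genotype. Mief1 had the largest stage change of the members in WT, a fall of 3.87-fold (log2 -1.95, SE 0.321, adjusted p = 7.23e-05, edgeR), and fell 2.44-fold in CKO (-1.28, SE 0.312, adjusted p = 0.00237). With total counts as the scale the CKO values of Fis1 (-1.08, adjusted p = 0.0553) and Mief1 (-0.64, adjusted p = 0.162) no longer passed, although both kept their sign.

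Mtfr1 (gene ID 67472, chromosome 3, 19187315 to 19220817) was at 104.9, 93.5, 88.3 and 83.4 CPM in GV WT and at 72.7, 84.0, 115.2 and 92.9 in GV CKO. It was at 27.3, 18.4 and 32.7 CPM in ovulated WT and at 37.4, 31.4 and 28.7 in ovulated CKO. The stages were far apart in both genotypes. Mtfr1 fell 3.55-fold in WT (log2 -1.83, SE 0.249, adjusted p = 1.39e-05, edgeR), the smallest p of any member, and fell by 1.49 on the log2 scale in CKO (SE 0.245, adjusted p = 0.000116). Rhot1 (gene ID 59040, chromosome 11, 80208610 to 80267907) was at 230.2, 250.5, 242.2 and 305.3 CPM in GV WT and at 220.6, 268.6, 239.4 and 341.3 in GV CKO. In ovulated oocytes it was at 337.2, 217.8 and 237.8 CPM in WT and at 300.2, 263.3 and 308.9 in CKO. The stages overlapped, and the log2 fold change was 0.04 in WT (SE 0.233, adjusted p = 0.89, edgeR) and 0.12 in CKO (SE 0.233, adjusted p = 0.676).

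In CKO oocytes 7 of the 9 tested members passed between the stages, 3 higher and 4 lower, against 55.7% of the 13158 genes tested (25.8% higher and 29.9% lower). The 7 did not overlap between the stages, as for 58.6% of all genes. They were the members that passed in WT apart from Mfn2, with the same sign in both genotypes. The genotypes have separate libraries at each stage, but the fits share 1 estimate of the spread. Using total counts in place of TMM scaling raised the median of all genes by 0.34 on the log2 scale in WT and by 0.59 in CKO. In CKO the share of passing genes that were higher went from 46.3% to 67.5% with that choice, and Mfn1 (1.87), Opa1 (1.34), Dnm1l (1.29) and Mtfr1 (-0.91) still passed in the same direction. Rhot1 passed in CKO only on that scale (0.74, adjusted p = 0.00564). The order of the 9 members along the stage change was the same on both scales within each genotype.

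**Figure D2:**
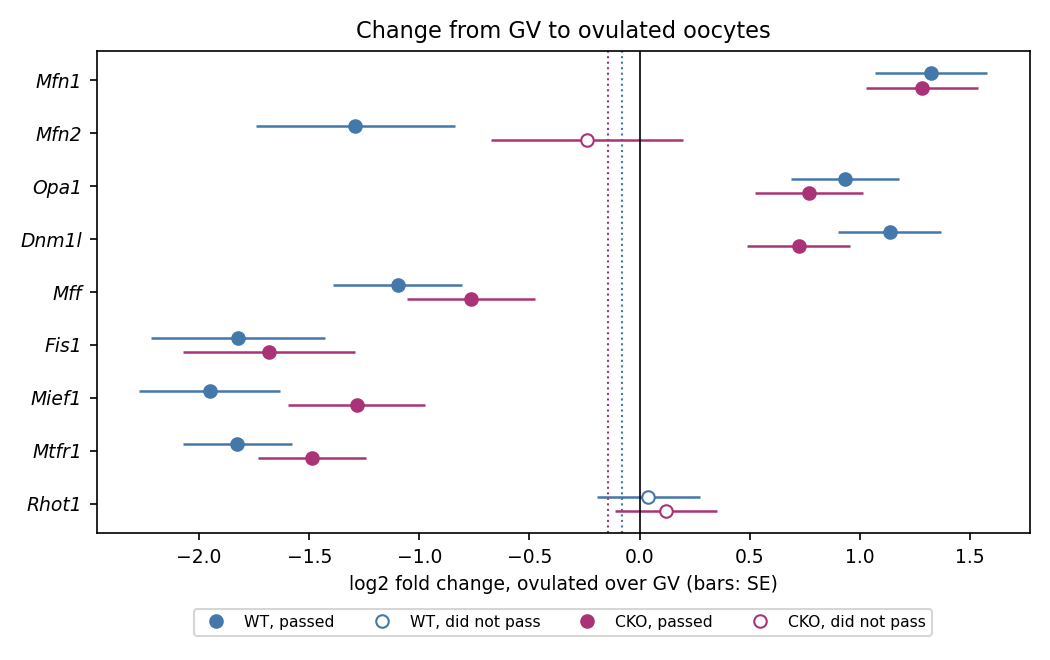
Log2 fold change of each tested member from GV to ovulated oocytes (x axis), with SE as bars, WT in blue and CKO in purple; filled points passed the test, and dotted lines mark the median of all genes in each genotype. Mfn1, Opa1 and Dnm1l lie to the right (0.72 to 1.32), Mff, Fis1, Mief1 and Mtfr1 to the left (-1.95 to -0.76), Rhot1 sits near 0, and Mfn2 passed in WT only.

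Ratios of FPKM between genes of the same library do not depend on how libraries are scaled, and are given as a description without a test. The ratio of Dnm1l to Fis1, a pair chosen after its values were seen, was between 0.502 and 0.673 in the 4 GV WT libraries and between 0.555 and 0.719 in the 4 GV CKO libraries. It was 13.2, 2.99 and 3.80 in ovulated WT and 2.37, 2.78 and 7.19 in ovulated CKO. The Fis1 mRNA thus went from the higher to the lower of the pair per length, in every library. The ratio of Dnm1l to Mff, chosen in the same way, was between 0.0344 and 0.0679 in GV WT and between 0.0299 and 0.0671 in GV CKO. It was 0.218, 0.147 and 0.333 in ovulated WT and 0.135, 0.146 and 0.137 in ovulated CKO. Mff thus remained the higher of that pair per length in every library, by a smaller factor in the ovulated ones.

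Between the paralogs, Mfn1 exceeded Mfn2 per length in every library. The ratio of their FPKM was 4.79, 7.41, 7.79 and 6.29 in GV WT and 10.9, 7.87, 8.71 and 8.96 in GV CKO. It was 80.7, 20.3 and 54.9 in ovulated WT and 28.4, 15.6 and 69.8 in ovulated CKO. All ovulated libraries were above all GV libraries, and the GV CKO libraries lay just above the GV WT libraries. With 0.1 added to each FPKM before the ratio was taken, the GV genotypes overlapped. Rhot1 exceeded its paralog Rhot2 by between 14.5 and 24.4 in GV WT and between 14.8 and 27.8 in GV CKO. In ovulated oocytes that ratio was 230.2, 65.7 and 86.8 in WT and 49.9, 29.6 and 220.7 in CKO, with the 3 CKO libraries spread over almost the whole range.

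**Figure D3:**
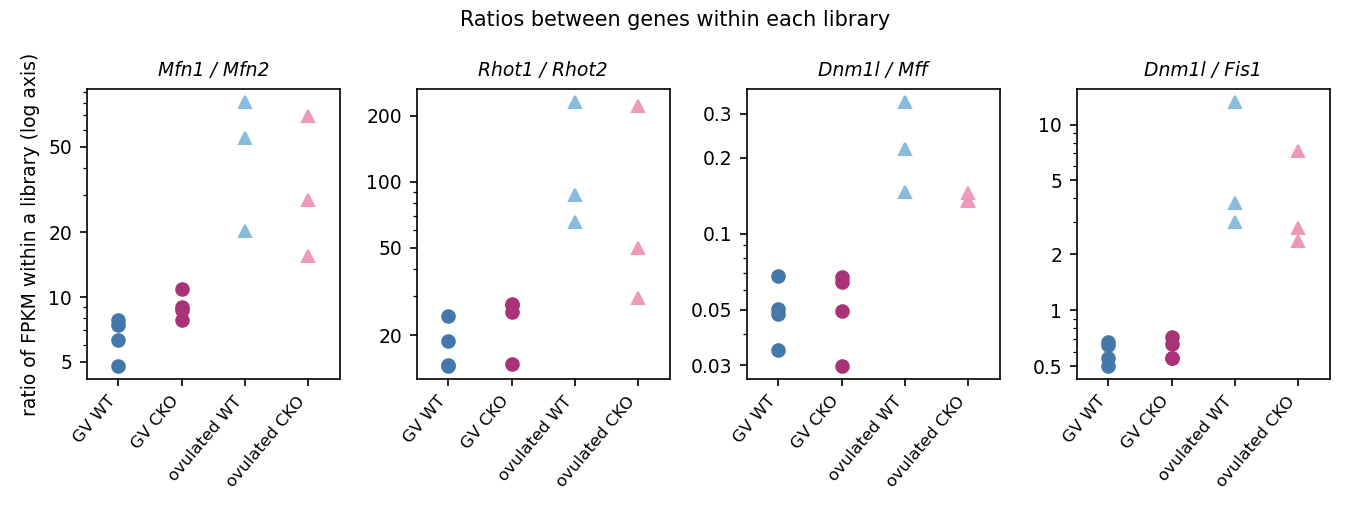
Ratio of FPKM between 2 genes of the same library (log axes), 1 panel per pair and 1 point per library, by group. In all 4 panels every ovulated library lies above every GV library, from 0.502 to 0.719 at GV against 2.37 to 13.2 when ovulated for Dnm1l to Fis1.

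In GV oocytes the loss of Clpx was not accompanied by a detectable difference in any of the members. None of the 9 tested members passed (edgeR quasi-likelihood test), none had an unadjusted p under 0.05, and none passed with DESeq2, against 3 of 12265 genes (0.0245%) that passed by edgeR and 5.74% with an unadjusted p under 0.05. Of these members 7 had a log2 fold change above 0, with a median of 0.11 against 0.02 for all genes. The adjusted p-values ran from 0.841 to 0.983. Dnm1l had the largest positive value (0.21, SE 0.158, adjusted p = 0.856), with a 95% interval of 0.914-fold to 1.47-fold. For Mfn1 the value was 0.17 (SE 0.212), with an interval from 0.815-fold to 1.54-fold. Mfn2 had the lowest value (-0.32, SE 0.206, adjusted p = 0.841, interval 0.585-fold to 1.09-fold, edgeR). It was the 1 member of 9 whose 4 CKO libraries all lay below the 4 WT libraries in CPM, which held for 2.3% of all genes in that direction and 3.65% in either. Their FPKM overlapped, at 1.66, 1.29, 1.74 and 1.09 in WT and 1.28, 0.89, 1.12 and 0.80 in CKO.

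The other fission genes of GV oocytes did not pass between the genotypes either, which does not show that they were equal. Mff differed by 0.18 (SE 0.273), Fis1 by 0.17 (SE 0.172), Mief1 by 0.04 (SE 0.215) and Mtfr1 by -0.02 (SE 0.185) on the log2 scale. Opa1 differed by 0.11 (SE 0.216) and Rhot1 by 0.06 (SE 0.2). The sign of Opa1, Mief1 and Rhot1 turned with total counts as the scale, which moved the median of all genes by -0.16.

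In ovulated oocytes none of the 9 tested members passed between the genotypes either (edgeR), none had an unadjusted p under 0.05, and none passed with DESeq2. Of 12044 genes tested 1 passed (0.0083%) and 7.76% had an unadjusted p under 0.05, and none of the members had groups that did not overlap, against 10.6% of all genes. Their log2 fold changes were above 0 for 7 of the 9, with a median of 0.27 against -0.0005 for all genes. The largest were Mfn2 (0.70, SE 0.624, adjusted p = 0.806, edgeR) and Mief1 (0.69, SE 0.388, adjusted p = 0.71), with intervals of 0.628-fold to 4.21-fold and 0.891-fold to 2.92-fold. The Mfn2 value lay between 0.0253 without ovulated CKO replicate 2 and 1.39 without ovulated WT replicate 2. For Mff the value was 0.50 (SE 0.283, adjusted p = 0.712), with an interval of 0.916-fold to 2.17-fold. Its deposited FPKM were 277.2, 306.3 and 209.1 in WT and 427.2, 352.0 and 410.0 in CKO, so the groups were apart in FPKM, whereas they overlapped in CPM. The same held for Rhot1, at 87.5, 74.9 and 68.6 FPKM in WT and 94.3, 90.8 and 88.3 in CKO. The 10.6% of all genes is for CPM, and the share apart in FPKM was not counted. No difference between the genotypes is therefore read from the FPKM of Mff and Rhot1. Fis1 (0.27, SE 0.528), Mtfr1 (0.30, SE 0.3), Rhot1 (0.13, SE 0.271) and Mfn1 (0.12, SE 0.278) were above 0, and Opa1 (-0.06, SE 0.26) and Dnm1l (-0.20, SE 0.297) below. The intervals were wide, reaching from 0.539-fold to 2.71-fold for Fis1 and from 0.553-fold to 1.37-fold for Dnm1l.

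**Figure D4:**
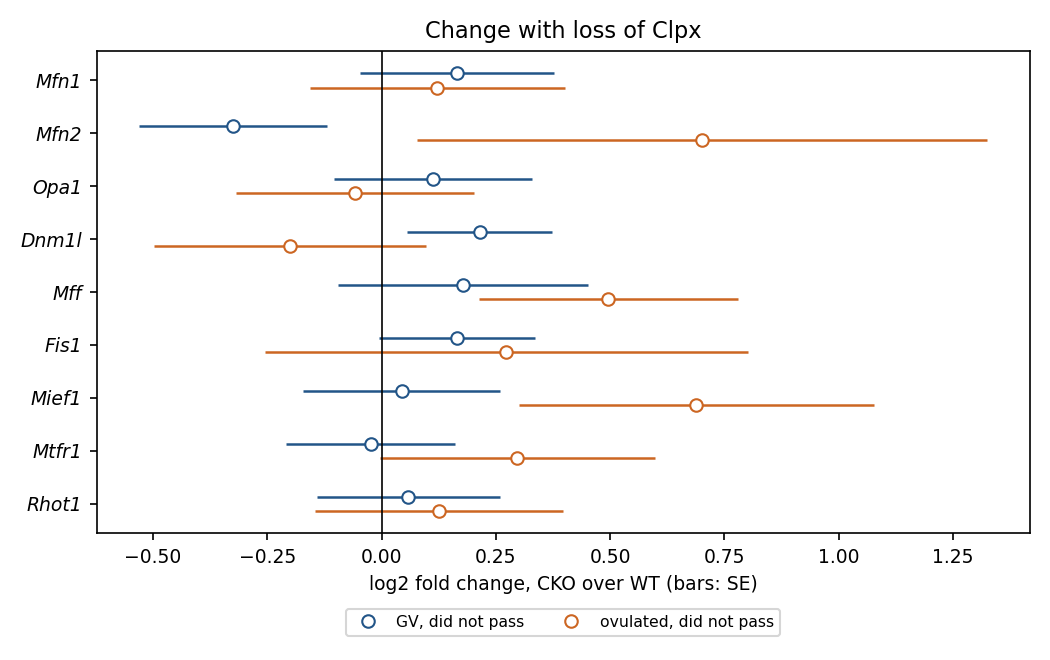
Log2 fold change of CKO over WT (x axis) with SE as bars for each tested member, GV oocytes in dark blue and ovulated oocytes in orange; open points did not pass the test. All 18 points are open, lie between -0.32 and 0.70, and the bars of the ovulated comparison are the longer ones for every member.

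The difference between the stages in the effect of the knockout passed for none of the 9 members (edgeR), with none at an unadjusted p under 0.05 and none by DESeq2. In that test 1 of 13158 genes passed (0.0076%), and 9.16% had an unadjusted p under 0.05. The largest values were those of Mfn2, given with its stage change, and Mief1 (0.67, SE 0.427, adjusted p = 0.702). Dnm1l stood at the other end with -0.41 (SE 0.332, adjusted p = 0.784), that is 0.462-fold to 1.22-fold as a 95% interval. Mff and Mtfr1 were both at 0.34 (SE 0.403 and 0.332), Fis1 at 0.14, Rhot1 at 0.08, Mfn1 at -0.04 and Opa1 at -0.16.

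Other genes of mitochondrial dynamics, chosen by their known roles, changed with the stage in both directions too. Of 9 further genes of fusion and its control, 4 rose and 2 fell in WT, where 63.7% of all genes passed (55.7% in CKO). Parl, a rhomboid protease of the inner membrane, fell by 2.73 on the log2 scale (adjusted p = 3.97e-06, edgeR), and Miga2, an outer-membrane protein that promotes fusion, fell from a low level (adjusted p = 0.00508). Miga2 had 48 counts over the GV WT libraries and 1 over the ovulated WT libraries, a ratio of 42.4 per scaled library with an exact 95% counting interval of 7.26 to 1711, and its fitted log2 value of -4.84 rests on that single count. Stoml2, a scaffold protein of the inner membrane, rose by 1.09 (adjusted p = 0.00395), as did Slc25a46, an outer-membrane carrier relative, by 0.87 (adjusted p = 0.019). The median of this list was 0.51 in WT and 0.28 in CKO, against -0.08 and -0.14 for all genes. In CKO 1 rose (Stoml2, 0.76, adjusted p = 0.0347) and 1 fell (Parl, which fell by 2.48, adjusted p = 1.68e-05, edgeR). Without ovulated WT replicate 1 the WT count was 3, and Slc25a46 no longer passed (0.70, adjusted p = 0.0882). In CKO the count was 1 without GV CKO replicate 2, 4 without GV CKO replicate 4 and 5 with total counts as the scale, and Stoml2 no longer passed without GV CKO replicate 2 or 3 or ovulated CKO replicate 2 or 3.

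Of 13 further fission genes 12 could be tested, of which 3 rose and 3 fell in WT (63.7% of all genes passed) and 4 rose and 2 fell in CKO (55.7%). Mul1, an outer-membrane ubiquitin and SUMO ligase, fell by 4.52 in WT (adjusted p = 2.07e-06, edgeR) and fell by 3.05 in CKO (adjusted p = 4.49e-05). Mtfr1l, a relative of Mtfr1, fell by 2.86 in WT (adjusted p = 7.6e-06) and by 1.33 in CKO (adjusted p = 0.00325). Gdap1, an outer-membrane protein linked to fission and to inherited neuropathy, rose by 1.58 in WT (adjusted p = 1.65e-05, edgeR) and by 1.29 in CKO (adjusted p = 0.000143). Mtfr2, the other relative of Mtfr1, rose by 1.52 in WT (adjusted p = 6.7e-05), so the 3 Mtfr family genes did not move together. Akap1, which anchors protein kinase A to mitochondria, rose by 1.26 in WT (adjusted p = 0.00416) and by 1.58 in CKO (adjusted p = 0.00105, edgeR). The medians of the list were 0.11 in WT and 0.02 in CKO, against -0.08 and -0.14 for all genes.

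Among 9 tested genes of mitochondrial movement and its anchors, 2 rose and 3 fell in WT (63.7% of all genes passed), and 4 rose and 2 fell in CKO (55.7%). Kif5b, the kinesin heavy chain that carries mitochondria along microtubules, rose by 1.92 in WT (adjusted p = 6.02e-06, edgeR) and by 1.75 in CKO (adjusted p = 2.43e-05). Of the 3 genes of outer-membrane metaxins, Mtx1 and Mtx2 fell and Mtx3 did not pass. Mtx1 had a log2 fold change of -4.42 in WT (adjusted p = 2.01e-06, edgeR) and -3.29 in CKO (adjusted p = 2.32e-05). When 1 library was left out, its CKO value ran from -4.14 (without ovulated CKO replicate 1) to -2.90. Mtx2 had a value of -3.67 in WT (adjusted p = 1.75e-05) and -1.55 in CKO (adjusted p = 0.00921). Leaving out 1 library gave -4.32 (without ovulated WT replicate 2) to -3.38 in WT and -1.99 to -1.09 in CKO. Mtx3 was at -1.38 in WT (adjusted p = 0.0563, edgeR) and at -0.01 in CKO (adjusted p = 0.987). With total counts as the scale the CKO calls of Mtx2 (-0.92, adjusted p = 0.148) and of Mtfr1l (-0.70, adjusted p = 0.139) were lost. Rhot2, the paralog of Rhot1, fell by 2.52 in WT (adjusted p = 0.000296, edgeR), while Rhot1 did not pass. In CKO neither passed, with Rhot2 at -1.07 (adjusted p = 0.0551). Myo19, a myosin of the outer membrane, rose by 0.67 in WT (adjusted p = 0.0263, edgeR) and by 0.85 in CKO (adjusted p = 0.00845). The CKO call was lost without ovulated CKO replicate 3 (0.65, adjusted p = 0.0604). The medians were 0.08 in WT and -0.01 in CKO, against the same -0.08 and -0.14.

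**Figure D5:**
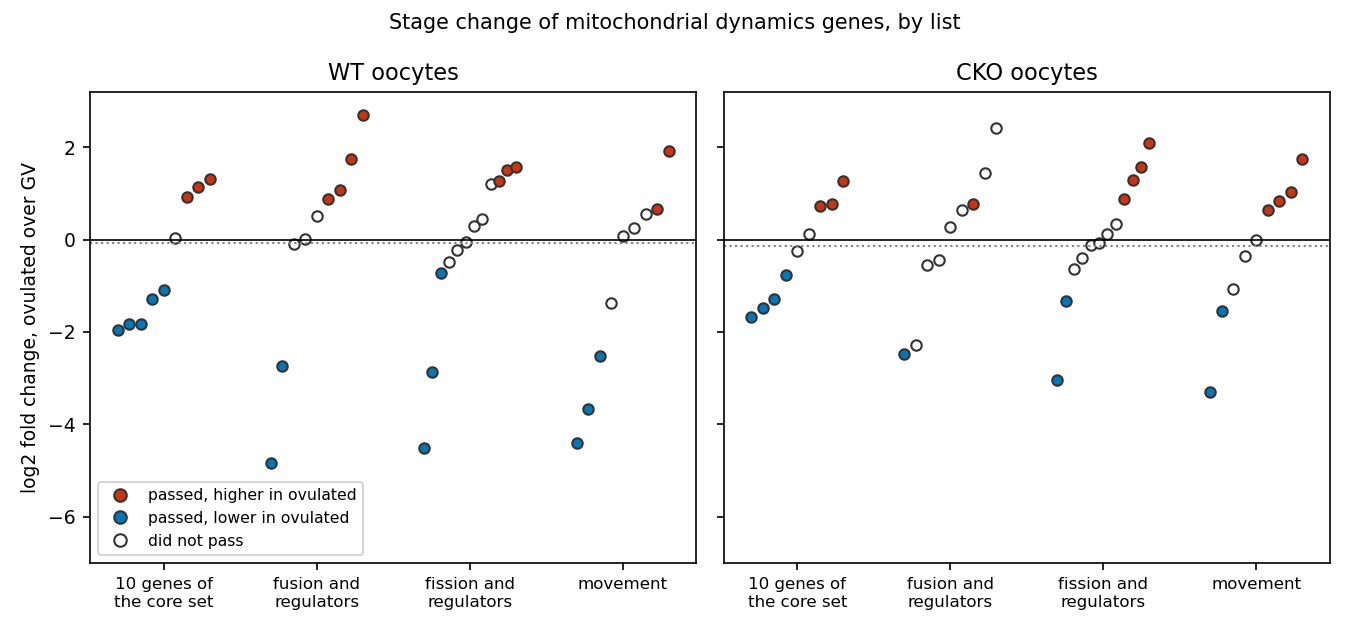
Log2 fold change from GV to ovulated oocytes (y axis) for the core set and for 3 further lists of mitochondrial dynamics genes, WT on the left and CKO on the right; each point is a gene, coloured where it passed, and the dotted line is the median of all genes. Every list holds genes on both sides of 0 in both genotypes, from -4.84 (Miga2, WT) to 2.71 (Miga1, WT).

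Between the genotypes none of these further genes passed at either stage (edgeR), with 7, 11 and 9 genes of the fusion, fission and movement lists tested in GV oocytes and 8, 12 and 9 in ovulated oocytes. In GV oocytes none had an unadjusted p under 0.05 and none passed with DESeq2. The genes with the smallest p there were Pld6 (-0.79) and Parl (0.21) for fusion, Marchf5 (0.40) and Mul1 (-0.30) for fission, and Mtx3 (-0.65) and Rhot2 (-0.35) for movement, with adjusted p-values between 0.836 and 0.897. In ovulated oocytes the fusion genes with the smallest p were Yme1l1 (-0.60, adjusted p = 0.713, edgeR) and Pld6 (-1.11, adjusted p = 0.742). Mtfr1l (1.55, adjusted p = 0.524), Mtfr2 (-0.78, adjusted p = 0.574) and Mtx2 (2.08, adjusted p = 0.524) had an unadjusted p under 0.05 by edgeR, and Trak1 (0.58, adjusted p = 0.706) followed. Of all genes tested there, 7.76% had an unadjusted p under 0.05. With DESeq2, Mtfr1l (adjusted p = 0.034) and Mtx2 (adjusted p = 0.0404) passed. Both also passed by edgeR when ovulated CKO replicate 3 was left out, at 1.85 (adjusted p = 0.0241) and 2.50 (adjusted p = 0.0295). Without that library 201 of all genes passed in place of 1, and more of all genes passed with DESeq2 too. The calls of Mtfr1l and Mtx2 therefore depend on the method and on the use of that library.

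The stage difference of the knockout effect passed for none of the further genes with all libraries (edgeR and DESeq2). By edgeR Mul1 (1.47, adjusted p = 0.458), Mtfr1l (1.53, adjusted p = 0.311), Rhot2 (1.45, adjusted p = 0.508) and Mtx2 (2.12, adjusted p = 0.308) had an unadjusted p under 0.05, as had 9.16% of all genes tested. The fusion genes with the smallest p were Miga2 (2.55, adjusted p = 0.727, on the few counts given for WT) and Yme1l1 (-0.58, adjusted p = 0.732, edgeR). Leaving out ovulated CKO replicate 3 moved Mtfr1l to 1.90 (adjusted p = 0.00603), Mtx2 to 2.56 (adjusted p = 0.00459) and Rhot2 to 1.90 (adjusted p = 0.0397). Without that library 498 genes passed in place of 1, so these calls depend on whether that library is used, and no member was among them.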

How the data were processed

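The members and the gene lists were chosen with earlier results of these data known. RNA of mouse oocytes was copied and amplified by a SMART-Seq method, per the labels' protocols. For each stage the authors deposited expected counts per gene, not scaled (between 14.45% and 16.32% of values fractional), and FPKM, which the authors scaled to length and library size. The build is mm10, per the submitters' processing notes, and the aligner, counter, annotation and use of strand are not given in the sources used here. Reads of Mfn2, Dnm1l, Mff, Mief1 and Mief2 and of annotated loci that overlap them therefore cannot be told apart. Counts of Mfn1 and Opa1 were fractional in all 14 libraries, and those of the other 8 members whole.

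Tables were joined by gene ID, and counts rounded. Genotypes were compared within a stage, and stages over all 14 libraries on genes of both tables. The test was edgeR 4.0.16 in R 4.3.3 (robust quasi-likelihood F-test after TMM scaling, on genes kept by filterByExpr at a minimum count of 10), with Benjamini-Hochberg adjustment over all genes tested. CPM are per TMM-scaled library over the 14 libraries. Intervals are 95% intervals of the fit, and limits from counts cover counting error only, since amplified reads carry no molecular identifiers. In counts simulated from the fit's own spread, estimates followed known fold changes placed in genes at 10 CPM or more. That check does not cover genes at lower levels, such as Mfn2, and is not used to judge differences that did not pass.

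All members are named in every comparison, with up to 4 genes of each list that passed, or the 2 of smallest p where none did. Alternatives were DESeq2 1.42.0, total counts as the scale, no filter, a replicate block, 1 fit of all libraries, and leaving out each library. 3′ ends are from GENCODE M21 transcripts, 1 per gene, and gene positions from RefSeq, both on mm10.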

Additional observations from a re-analysis of the deposited data

Results flagged for a closer look

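A value far from the rest of its group was found in 2 of the 20 groups of 4 libraries examined, where chance gives about 1 in 20. Mfn2 in the GV WT libraries had its lowest value at 6.38 CPM in replicate 4, set apart because the other three lay within 6.55 to 6.58 CPM, so the distance itself is small. Mief1 in the GV WT libraries had its lowest value at 26.4 CPM in replicate 1, against 41.4 to 43.8 CPM in the other three.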

How the results depend on the processing

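No member passed between the genotypes at either stage, or in the stage difference of the effect, under any alternative run. Over all genes the counts were unstable: in GV oocytes 3 passed by edgeR and 39 by DESeq2 (3 to 6 when a library was left out). In ovulated oocytes 1 passed, against 114 by DESeq2 and 64 in the fit of all 14 libraries, and 1 to 201 when a library was left out (201 without ovulated CKO replicate 3). The stage difference gave 1 gene, 64 by DESeq2 and 0 to 498 when a library was left out. From GV to ovulated oocytes 7 members in WT (all that passed but Mfn2) passed in each of 12 settings, and in CKO 4 did (Mfn1, Opa1, Dnm1l and Mtfr1). Mfn2 passed in 7 of 12 settings in WT, and in CKO Fis1 and Mief1 in 11 and Mff in 5. With total counts as the scale these log2 values changed sign: in GV oocytes Mief1 (-0.13), Opa1 (-0.0335) and Rhot1 (-0.13); in ovulated oocytes Opa1 (0.0277); in the CKO stage change Mfn2 (0.42); and in the stage difference Mfn1 (0.23) and Opa1 (0.0612). Same-numbered WT and CKO libraries deviated together for some numbers only (GV r of -0.249, 0.196, 0.334 and 0.332; ovulated r of -0.235, 0.261 and -0.019), which falls short of r above 0.1 for every number, so the numbers were not taken to pair libraries. With the replicate block 8 members passed in WT and 6 in CKO between the stages, 0 genes passed for the stage difference, and Mfn1 there turned to 0.0063 on the log2 scale. In CKO, Mff was at -0.56 with the block (adjusted p = 0.0915) and did not pass. The block also gave 4 fusion genes in CKO in place of 2. Leaving out 1 library also turned signs of values that had not passed, over these ranges: in GV oocytes Mff -0.00382 to 0.38, Mfn1 -0.00485 to 0.27, Mief1 -0.13 to 0.13, Mtfr1 -0.16 to 0.0842 and Rhot1 -0.10 to 0.16; in ovulated oocytes Fis1 -0.14 to 0.67, Mfn1 -0.0773 to 0.33, Opa1 -0.25 to 0.0281 and Rhot1 -0.0108 to 0.29; between the stages Rhot1 in WT -0.16 to 0.20 and Mfn2 in CKO -0.94 to 0.14; and in the stage difference Fis1 -0.25 to 0.55, Mfn1 -0.17 to 0.20 and Rhot1 -0.00187 to 0.32. The cause was not tested.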

Other observations

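The cytoplasmic polyadenylation element searched for in the 3′ ends was found in 28.8% of 3849 genes that rose from GV to ovulated WT oocytes, in 10.6% of 4348 that fell and in 19.2% of 4602 that did not pass. Mfn1, the only member with a match, rose. Dnm1l and Opa1 rose without a match to these letters, and none of the members that fell had one. Whether the element had a part in the stage change of Mfn1 was not tested. The cleavage and polyadenylation signal was found in 80.9%, 70.7% and 76.7% of the same 3 sets of genes.

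The genes whose levels over the 14 libraries were most like those of Mff were Chmp3 (Pearson r 0.965 of log2 CPM), Golga7 (0.946) and Bmp15 (0.938), among 6606 genes. Those most like Mief1 were Cops5 (0.968), Rpl5 (0.968) and Foxj3 (0.966). The points share stage, library and depth, and the stages form separate groups, so these values describe likeness only.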
